A study of Mus musculus with 24 samples.

Results

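Potassium channel genes were taken as the protein-coding mouse genes of the count files whose symbol starts with Kcn, which gave 94 of 21547 protein-coding genes. Of these, 65 had a mean of at least 10 raw counts over the 24 files and were tested for change, and the other 29 were below this limit and were not tested. The mean count was 12.04 for Kcnk5, the lowest gene inside this limit, and 9.63 for Kcna3, the highest gene outside it. All 24 libraries were individual mouse retinal organoids (MROs) derived from the wildtype mouse embryonic stem cell line E14Tg2a, 6 each at day 20 (D20), D22, D25 and D30 of differentiation, from 1 independent experiment. All received the solvent water, and under the paper's protocol the cultures had been given the retinoid analog EC23 before D20. No library came from an organoid with a further treatment or a mutation, and each library holds 1 whole organoid with every cell type it contained. The adjusted p-values therefore measure the spread between organoids of 1 experiment. Libraries held between 13634846 and 19477108 reads counted on features, so that 3 counts corresponded to between 0.154 and 0.22 CPM (counts scaled to a common library total), and levels are given as CPM corrected by the library normalization factors (normalized CPM).

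Potassium channels let potassium ions cross the cell membrane and set the resting potential, shape the repolarization after a depolarization, and buffer extracellular potassium around active neurons. Conducting subunits of the voltage-gated family assemble with silent modifier subunits and auxiliary proteins, inward rectifiers and two-pore channels carry current near rest, and a further family opens with intracellular calcium or sodium. In the retina, photoreceptor inner segments pass a potassium current through channels that hold Kv8.2, encoded by Kcnv2, and loss of human KCNV2 causes a cone and rod dystrophy, while Müller glia take up potassium through Kir4.1, encoded by Kcnj10.

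The labelled tissue was checked on marker genes. All 8 rod photoreceptor genes of the marker list were above 3 mean counts at every timepoint, and the median of their summed level over the organoids of each age was 1128, 2348, 6574 and 10070 normalized CPM in the order of age. The 6 Müller glia genes had a median sum of 479.7 at D20 and 2362 at D30, and the 6 progenitor and cycling genes one of 1443 at D20 and 337.6 at D30. The sum of 6 cortex type neuron genes, Neurod6, Tbr1, Emx1 and Neurod2 among them, differed widely between organoids of the same age. It ranged from 10.3 to 219.7 normalized CPM at D20, from 6.55 to 22.3 at D22, from 6.76 to 347.2 at D25 and from 6.04 to 230.7 at D30. Neurod6 alone made up 143.7 of the highest sum at D20, 197.1 of that at D25 and 175.3 of that at D30. The paper describes Neurod6 as a gene of postmitotic amacrine cells, so the sum need not reflect cortex type cells alone. In whole organoids, a change in the number of cells of a type and a change in RNA per cell cannot be told apart.

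Between D20 and D30, 35 of the 65 tested Kcn genes rose and 8 fell (edgeR's quasi-likelihood test, Benjamini-Hochberg adjusted p below 0.01). Over all 46949 tested features 13.9% were called higher and 13.0% lower in this comparison, and over the 16253 annotated genes among them 25.1% and 16.7%. When annotated genes alone were normalized and tested, these shares were 23.2% and 21.8%, and 34 Kcn genes were called higher and 10 lower. The median log2 fold change of the 65 genes was 1.14, beside -0.04 for all features and 0.10 for the annotated genes. In 14 Kcn genes all 6 D30 organoids lay above all 6 D20 organoids and in 5 all lay below, where 9.6% and 9.34% of all features and 17.0% and 12.7% of the annotated genes had such separate groups. By the joint test over the timepoints, 44 of the 65 differed, beside 27.2% of all features and 43.9% of the annotated genes.

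**Figure D1:**
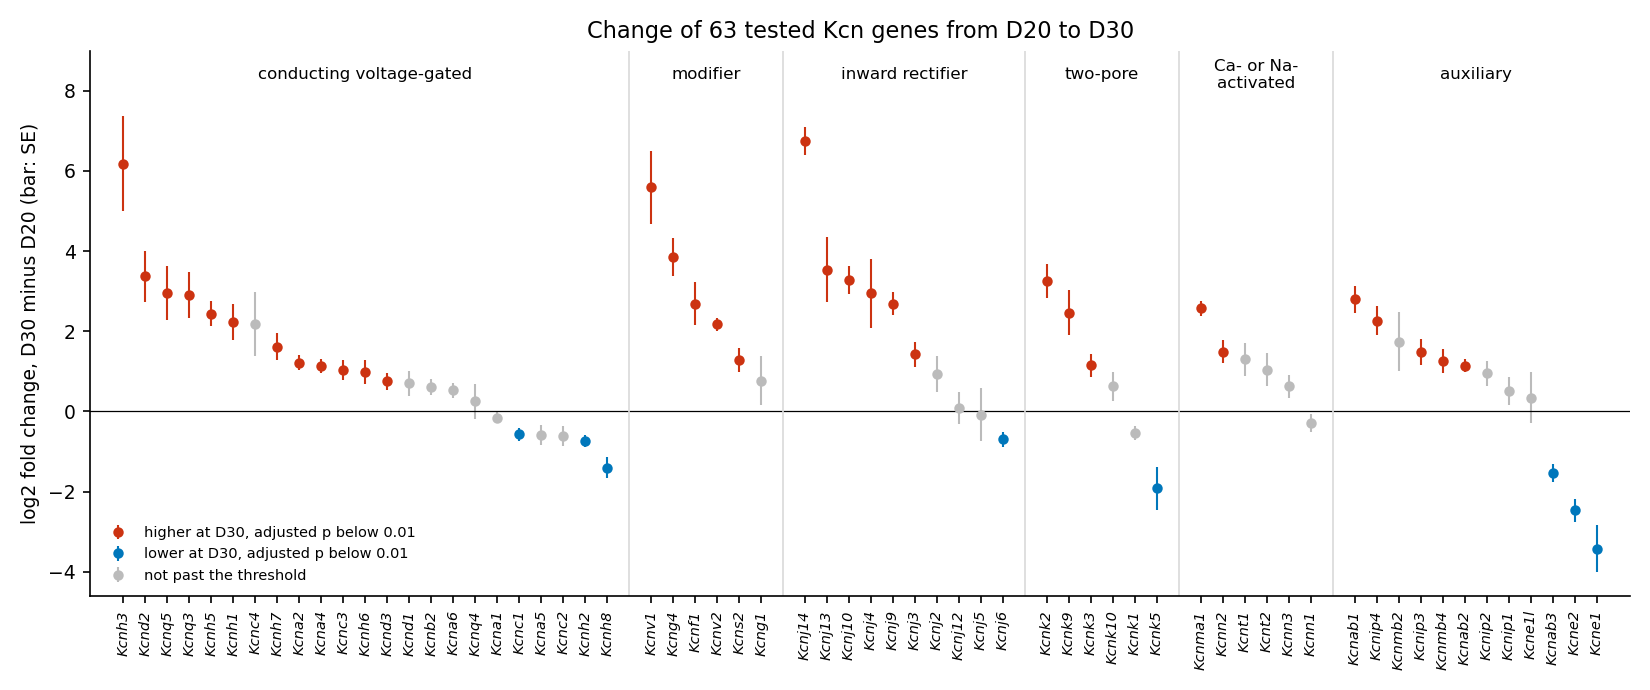
Log2 fold change from D20 to D30 of 63 of the 65 tested Kcn genes (y axis; bars give the SE of the fit with 6 organoids per timepoint), ordered within role groups along the x axis. Red points rose and blue points fell past an adjusted p of 0.01, grey points did not pass it; Kcnj14 stands highest at 6.75 and Kcne1 lowest at -3.42. The fitted values of Kcnh3 and Kcnv1 rest on D20 means under 3 counts.

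Taken step by step, the calls were few from D20 to D22 and most from D22 to D25. From D20 to D22, 4 Kcn genes rose, Kcnv2, Kcnj14 and Kcnj9 among them, beside 1.62% of all features and 2.56% of annotated genes (3.51% where these alone were normalized and tested). None fell by edgeR's test, while 5 were lower at an unadjusted p below 0.05 and DESeq2 called 1 lower, Kcnk1. The background was 0.285% of all features called lower. From D22 to D25, 11 rose and 1 fell, beside 3.08% and 2.19% of all features and 7.33% and 2.92% of annotated genes (6.29% and 5.96% where these alone were normalized and tested). The median log2 fold change was 0.72 in the Kcn genes and -0.05 in all features. The count of 11 was 6 without D25 replicate 1, 7 without D22 replicate 1 and 7 without D22 replicate 4, and the fall of Kcne2 was not called without D22 replicate 1 or without D22 replicate 6. From D25 to D30, 6 rose and 2 fell, beside 1.76% and 1.75% of all features and 4.55% and 2.83% of annotated genes (4.56% and 4.54% where these alone were normalized and tested, with 6 Kcn genes higher and 4 lower). With size factors of DESeq2 the numbers were 6 and 1, and without D30 replicate 6 the count of rises was 11. The steps share timepoints with each other and with the comparison of D30 with D20.

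Summed over the members of each group, the conducting voltage-gated genes had 241.7 ± 33.5 normalized CPM at D20 and 519.8 ± 99.6 at D30 (SD, n = 6), the modifiers went from 56.6 ± 11.4 to 264.9 ± 32.6, and the inward rectifiers from 38.3 ± 8.55 to 182.6 ± 54.3. The calcium- or sodium-activated genes went from 35.3 ± 8.65 to 97.7 ± 19.3. Two-pore channels went from 70.9 ± 13.5 at D20 through 45.1 ± 9.91 at D22 to 72.8 ± 19.8 at D30. The auxiliary genes took the opposite course, from 403.0 ± 60.0 to 197.2 ± 38.4, which turned on a single gene: without Kcne2 their sum was 72.9 ± 9.14 at D20 and 137.7 ± 22.2 at D30. These sums were not tested.

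**Figure D2:**
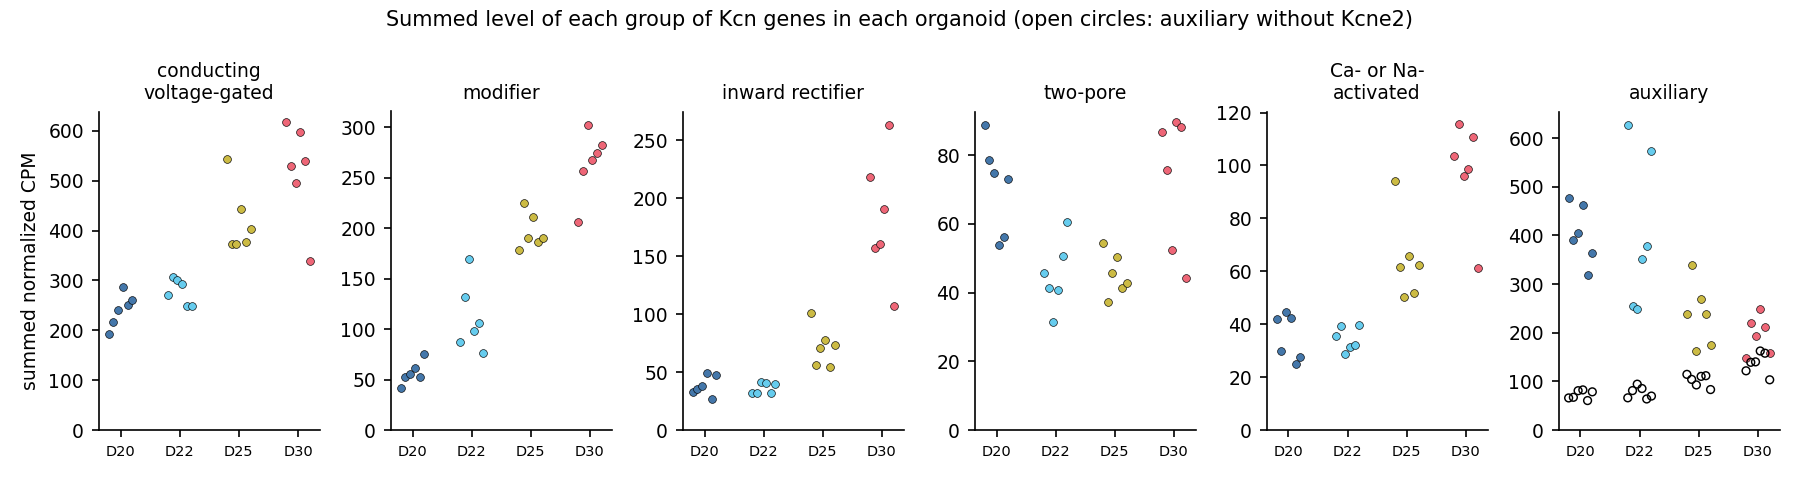
Summed normalized CPM of all Kcn genes of a role group (y axis, from 0) in each organoid at D20, D22, D25 and D30 (x axis), 1 point per organoid; open circles give the auxiliary genes without Kcne2. All D30 organoids lie above all D20 organoids in the sums of the conducting, modifier, inward rectifier and calcium- or sodium-activated groups, and the auxiliary sum is lower at D30 only with Kcne2 included.

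Kcne2 had the highest level of the family at D20 and Kcnv2 at D30. Kcne2, an auxiliary subunit with a single membrane span (chr16:92292389-92298129, GRCm38, plus strand), made up 39.0% of the summed normalized CPM of all Kcn genes at D20 and 4.46% at D30. Per kb of exon it was the most abundant Kcn gene at D20, with 187 normalized CPM per kb, ahead of Kcnk1 with 25.4. At D30 Kcnv2 led with 44.4 normalized CPM per kb, followed by Kcne2 with 33.7, Kcnk1 with 17.4, Kcnj14 with 15.99, Kcnab2 with 12.5 and Kcnj10 with 12.4.

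Among the 30 conducting voltage-gated genes, 25 were tested, and 14 rose and 3 fell from D20 to D30. Over all features 13.9% were called higher and 13.0% lower in this comparison, and over annotated genes 25.1% and 16.7%. Exon bases were shared with another annotated gene by 23 of the 65 tested genes, which include Kcnq5, Kcnj3, Kcnj6, Kcnj9, Kcnj13, Kcnk1, Kcnk2, Kcnk3, Kcnma1, Kcnn1, Kcnab1, Kcnab2 and Kcnab3. Since the strand setting of the counting is not given in the sources used here, reads of such pairs may not have been told apart.

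Kcnq3 and Kcnq5 encode Kv7 subunits of the M-current, a slow current that limits repetitive firing. Kcnq3 (chr15:65986387-66286642, minus strand) had a lowest, median and highest level of 0.909, 2.38 and 9.17 normalized CPM at D20, 0.288, 1.52 and 4.79 at D22, 4.34, 14.2 and 44.5 at D25, and 4.77, 32.6 and 42.8 at D30. The D22 and D25 groups overlapped, as did D20 and D30. Its log2 fold change was 2.97 from D22 to D25 (SE 0.60, adjusted p = 0.0012) and 2.91 from D20 to D30 (SE 0.58, adjusted p = 0.000149). Kcnq5 rose over the same pairs by 2.90 (SE 0.72, adjusted p = 0.00754) and 2.96 (SE 0.68, adjusted p = 0.000888), with 1.22, 26.4 and 36.2 normalized CPM as its lowest, median and highest level at D30. At D25 it had 31.1 in replicate 1 and 0.488 to 14.03 in the other 5, and the log2 fold change from D22 to D25 was 2.04 without replicate 1 (adjusted p = 0.0512). That call was also lost without D25 replicate 6 and without D22 replicate 1, 2, 3, 4 or 6, in 7 of 24 repeats that each left out 1 organoid.

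The Kv3 genes, whose channels serve fast spiking, did not share the rise. Kcnc1, which encodes Kv3.1, had 21.1 ± 5.06 normalized CPM at D20, fell, and had 14.2 ± 2.49 at D30 (SD, n = 6; log2 -0.57, SE 0.16, adjusted p = 0.00519), though the groups overlapped and the joint test over the timepoints missed the threshold (adjusted p = 0.0301). The call was lost without D20 replicate 1, 3 or 4 and without D30 replicate 2, 3 or 6 (adjusted p up to 0.0173). Kcnc2, for Kv3.2, had 6.65 ± 1.06 at D20 and 4.34 ± 2.19 at D30, which did not pass (log2 -0.61, SE 0.24, adjusted p = 0.043). Kcnh2, 1 of several ERG channel genes, fell from 16.8 ± 3.47 to 10.1 ± 2.12 (log2 -0.74, SE 0.15, adjusted p = 0.000276), and all its D30 organoids lay below all D20 organoids. The other ERG genes, Kcnh6 and Kcnh7, named after their values were seen, were both called higher from D20 to D30, with overlapping groups. Kcnh6 had means of 1.63 normalized CPM at D20 and 3.22 at D30, and its call was lost without D20 replicate 1 and in further repeats. Kcnh7, which shares exon bases with Gca on the opposite strand, had means of 8.48 and 26.0. The third conducting gene that fell was Kcnh8, at log2 -1.40, named here after its value was seen.

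Modifier subunits carry no current of their own and change the gating of the channels they join. Of 10 such genes 6 were tested, and 5 rose from D20 to D30, beside 13.9% of all features and 25.1% of annotated genes. Kcnv2 (chr19:27322588-27337179, plus strand), which encodes Kv8.2, had a lowest, median and highest level of 35.4, 48.6 and 67.8 normalized CPM at D20, 71.3, 96.4 and 163.1 at D22, 151.6, 177.1 and 216.4 at D25, and 167.8, 228.1 and 264.2 at D30. All D22 organoids lay above all D20 organoids, and later neighbours in age overlapped. The log2 fold change was 1.07 from D20 to D22 (SE 0.16, adjusted p = 8.77e-05), 0.78 from D22 to D25 (SE 0.16, adjusted p = 0.00111) and 2.17 from D20 to D30 (SE 0.16, adjusted p = 4.63e-12).

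Kcng4 (chr8:119623854-119635680, minus strand), for the modifier Kv6.4, rose later. Its lowest, median and highest levels were 0, 1.05 and 3.01 normalized CPM at D20, 3.38, 4.33 and 6.95 at D25, and 8.97, 18.5 and 22.9 at D30. The D30 organoids lay above all others in this gene. The log2 fold change was 1.91 from D25 to D30 (SE 0.42, adjusted p = 0.00366) and 3.86 from D20 to D30 (SE 0.48, adjusted p = 1.11e-07). The rise from D25 was not called without D25 replicate 2, 4 or 6 (adjusted p up to 0.0116). Kcnv1 and Kcnf1, named after their values were seen, also rose from D20 to D30 (adjusted p = 9.91e-06 and 0.00016). Kcnv1 had a mean of 1.67 raw counts per organoid at D20 and 94.0 at D30.

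**Figure D3:**
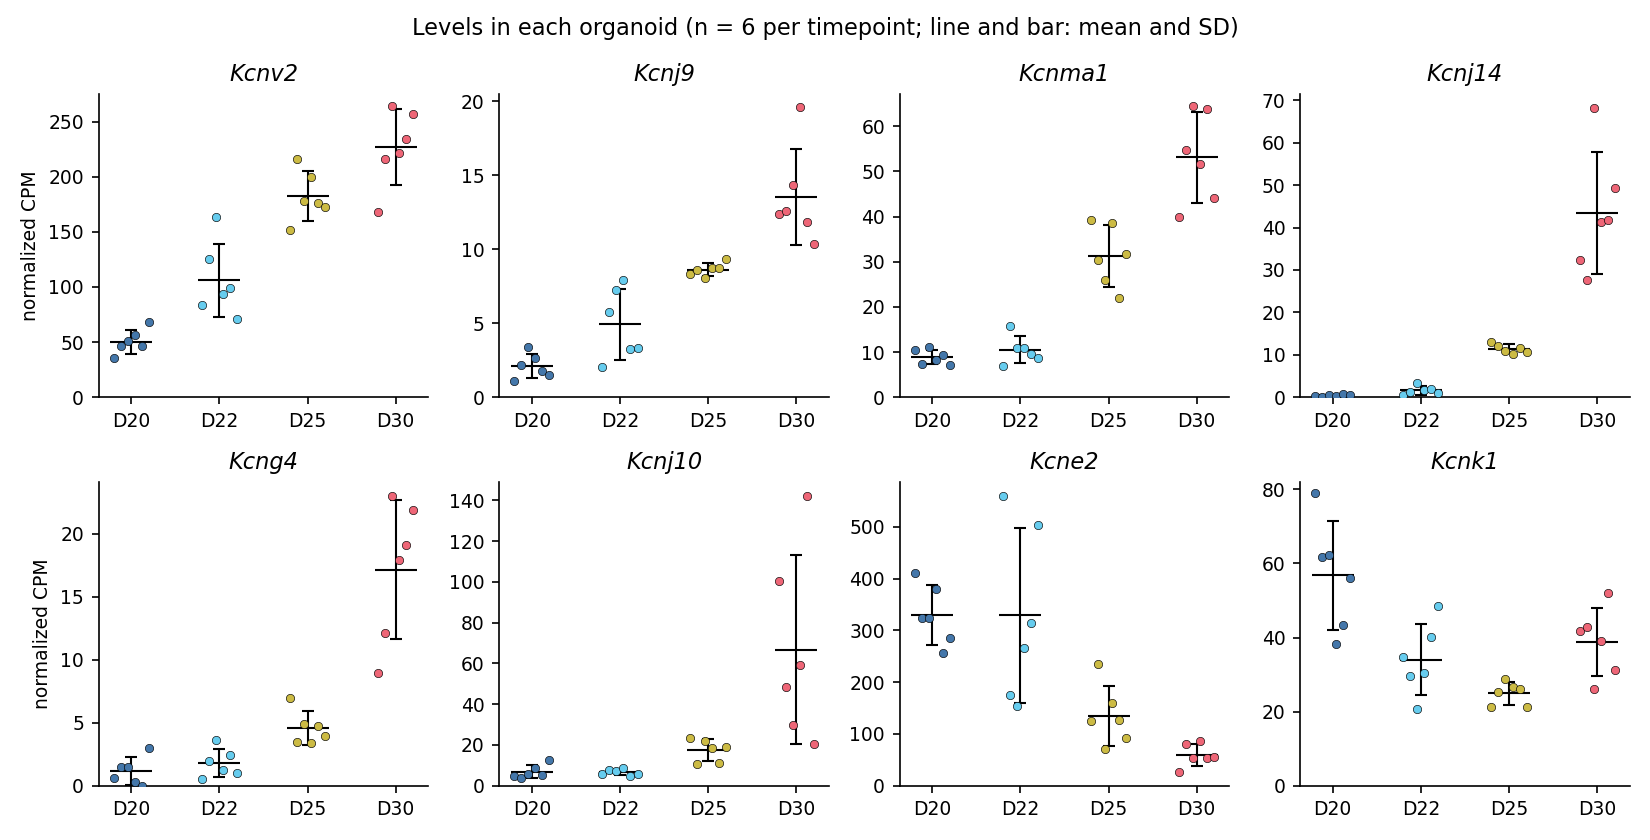
Normalized CPM (y axis, from 0, separate for each gene) of 8 Kcn genes in the 6 organoids of each timepoint (x axis); horizontal lines give the mean and bars the SD. Kcnv2 steps up at D22 and D25, Kcnj9 is highest at D30, Kcnma1 and Kcnj14 stand apart from D25 on, Kcng4 and Kcnj10 are highest at D30 with 20.7 to 142.1 for Kcnj10, and Kcne2 is lowest at D30.

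Inward rectifiers held the gene with the largest change of the family. Of 15 genes 10 were tested, and 6 rose and 1 fell from D20 to D30. The shares called were 13.9% and 13.0% over all features and 25.1% and 16.7% over annotated genes. Kcnj14 (chr7:45816460-45824782, minus strand), which encodes the inward rectifier Kir2.4, had between 1 and 10 raw counts per organoid at D20. In normalized CPM the lowest, median and highest level were 0.0672, 0.389 and 0.711 at D20, 0.552, 1.41 and 3.31 at D22, 10.1, 11.3 and 13.0 at D25, and 27.7, 41.5 and 68.2 at D30. From D22 on, the groups of neighbouring ages did not overlap. It rose by 1.98 from D20 to D22 (SE 0.38, adjusted p = 0.00151), by 2.84 from D22 to D25 (SE 0.29, adjusted p = 2.71e-07) and by 1.93 from D25 to D30 (SE 0.26, adjusted p = 6.58e-06) on the log2 scale. The whole change from D20 to D30 was 6.75 (SE 0.35, adjusted p = 3.43e-15).

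Kcnj9, for the G protein-gated subunit Kir3.3, had means of 2.09 ± 0.82, 4.92 ± 2.40, 8.63 ± 0.43 and 13.5 ± 3.25 normalized CPM (SD, n = 6) in the order of the timepoints. The groups of D20 and D22 overlapped, and those of D20 and D30 did not. It was called from D20 to D22 (log2 1.23, SE 0.28, adjusted p = 0.007) and from D20 to D30 (log2 2.69, SE 0.28, adjusted p = 4.81e-09). The call from D20 to D22 was lost in 9 of 24 repeats with 1 organoid left out (log2 1.04 to 1.42, adjusted p up to 0.0322), namely without D20 replicate 1, 2, 5 or 6, D22 replicate 2, 3 or 4, or D25 replicate 4 or 6, and in a fit of the compared timepoints alone. Kcnj6, for the related subunit Kir3.2, went the other way and fell, with D20 organoids between 6.50 and 10.3 and D30 organoids between 3.27 and 7.08 (log2 -0.70, SE 0.19, adjusted p = 0.0039), with overlapping groups. Its call was lost without D20 replicate 2 or 4 and without D30 replicate 5 or 6.

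Kcnj10 (chr1:172341210-172374085, plus strand), is the glial Kir4.1 gene. Its lowest, median and highest level were 3.83, 5.48 and 12.8 normalized CPM at D20, 4.89, 6.59 and 8.75 at D22, 10.8, 18.5 and 23.4 at D25, and 20.7, 53.8 and 142.1 at D30. All D25 organoids lay above all D22 organoids, and the D30 organoids spread most. The log2 fold change was 1.38 from D22 to D25 (SE 0.34, adjusted p = 0.00691), 1.94 from D25 to D30 (SE 0.33, adjusted p = 0.000206) and 3.28 from D20 to D30 (SE 0.35, adjusted p = 9.76e-09). The call from D22 to D25 was lost without D22 replicate 1, 2, 5 or 6 and without D25 replicate 1, 3, 4 or 6 (log2 1.28 to 1.48, adjusted p up to 0.0205). At D30 it was highest in replicate 5 (142.1) and replicate 1 (100.6), the organoids with 2163 and 2034 normalized CPM of the glial filament gene Gfap, and lowest in replicate 6 (20.7), with 113.6 of Gfap. Both the Müller glia sum (1152 to 4101 at D30) and the sum of the 3 astrocyte genes, nearly all Gfap (114.7 to 2166), had their lowest value in replicate 6 too, and their part in the Kcnj10 values was not tested.

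Its channel partner Kcnj16, for Kir5.1, had a mean of 6.29 raw counts and was not tested. No read was counted in any D20 organoid, which at 3 counts allows up to 0.22 CPM in the smallest D20 library (13634846 reads). At D30 the lowest, median and highest level were 0.222, 1.18 and 3.37 normalized CPM. Kcnj2, for the strong rectifier Kir2.1, rose from a mean of 0.787 ± 0.593 at D22 to 3.01 ± 1.47 at D25 (SD, n = 6; log2 1.94, SE 0.49, adjusted p = 0.00832), with overlapping groups. That call was lost in 9 of 24 repeats with 1 organoid left out, namely without D20 replicate 3, D22 replicate 1, 2, 3, 4 or 5, or D25 replicate 1, 3 or 4. Its D20 mean was 2.48 ± 1.49, and D30 did not differ from D20 past the threshold (log2 0.94, SE 0.45, adjusted p = 0.0976). Kcnj13, for the inward rectifier Kir7.1, had 0 to 10 raw counts at D20 and rose by 3.54 to D30 (SE 0.81, adjusted p = 0.000804). At D30 its 2 highest organoids were replicate 6 (8.37 normalized CPM) and replicate 2 (5.63), where Ttr of the pigment epithelium list had 2461 and 2627, against 19.9 to 461.8 in the other 4. Other genes of the list followed Kcnj13 in part or not at all. Mitf was highest in replicate 2 (26.6), while replicate 6 (16.7) lay below replicate 1 (20.8). Pmel was highest in replicate 1 (22.3, against 6.30 in replicate 2 and 5.54 in replicate 6) and so was Tyr (13.3, against 12.5 and 4.49), where Kcnj13 had 0.742. Without replicate 6 the log2 fold change of Kcnj13 was 2.88 (adjusted p = 0.00568). Rpe65 and Best1, defining genes of that list, were at or under 3 mean counts at D30, and Kcnj13 shares exon bases with Gigyf2 on the opposite strand. The part of either in the Kcnj13 values was not tested.

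Two-pore channels carry background potassium current. Of 14 genes 6 were tested, and 3 rose and 1 fell from D20 to D30. The shares called were 13.9% and 13.0% over all features and 25.1% and 16.7% over annotated genes. Kcnk1, for TWIK-1, was the most abundant and followed a dip, since its median level went from 58.8 (D20) through 32.6 (D22) and 25.8 (D25) to 40.4 normalized CPM (D30). It differed over the timepoints in the joint test (adjusted p = 2.55e-05), while none of the 4 compared pairs passed: the log2 fold change was -0.74 from D20 to D22 (adjusted p = 0.0115) and 0.64 from D25 to D30 (adjusted p = 0.0231). Kcnk3, for the acid-sensitive TASK-1, had lowest, median and highest levels of 1.16, 1.42 and 2.62 at D25 and 3.94, 4.34 and 6.14 at D30, without overlap (log2 1.57, SE 0.29, adjusted p = 0.000553). Kcnk2, for the stretch-sensitive TREK-1 and named after its value was seen, rose by 3.26 from D20 to D30 (SE 0.43, adjusted p = 3.14e-07).

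Of the 8 calcium- or sodium-activated genes 6 were tested, and 2 rose from D20 to D30, beside 13.9% of all features and 25.1% of annotated genes. Kcnma1 (chr14:23289431-24014491, minus strand) encodes the large-conductance BK channel. Its lowest, median and highest levels were 7.17, 8.82 and 11.01 normalized CPM at D20, 6.99, 10.2 and 15.8 at D22, 22.1, 31.0 and 39.3 at D25, and 39.9, 53.2 and 64.4 at D30. D20 and D22 overlapped, and D25 and D30 each lay above all earlier organoids. The log2 fold change was 1.58 from D22 to D25 (SE 0.17, adjusted p = 7.38e-07), 0.76 from D25 to D30 (SE 0.17, adjusted p = 0.00331) and 2.57 from D20 to D30 (SE 0.18, adjusted p = 9.89e-13). The step from D25 to D30 was not called without D25 replicate 3 or 5 (adjusted p up to 0.0133). Kcnn1, for the small-conductance channel SK1 and the most abundant of the group per kb, had 8.74 ± 2.49 at D20 and 7.13 ± 2.03 at D30 (SD, n = 6), and its log2 change was -0.30 with a 95% interval from -0.74 to 0.15 (adjusted p = 0.33).

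Auxiliary genes were split. Of 16 genes 12 were tested, and 5 rose and 3 fell from D20 to D30. The shares called were 13.9% and 13.0% over all features and 25.1% and 16.7% over annotated genes. Kcne2 had a lowest, median and highest level of 257.1, 324.1 and 411.7 normalized CPM at D20, 154.5, 290.2 and 559.9 at D22, 70.4, 125.4 and 235.8 at D25, and 26.7, 54.7 and 87.1 at D30. The D22 organoids spread most, and all D30 organoids lay below all D20 and D22 organoids. The gene fell by 1.29 from D22 to D25 (SE 0.28, adjusted p = 0.00262), by 1.18 from D25 to D30 (SE 0.28, adjusted p = 0.00725) and by 2.47 from D20 to D30 (SE 0.29, adjusted p = 5.45e-08) on the log2 scale. The call from D25 to D30 was lost with DESeq2, with its size factors, in a fit of the compared timepoints alone, and without D25 replicate 1, 2, 4 or 5 or D30 replicate 1, 3, 5 or 6, where the change ranged from -1.32 to -0.95 over all 24 such repeats (adjusted p up to 0.0364). Kcne1, a related gene also on chromosome 16, fell by 3.42 (SE 0.58, adjusted p = 1.9e-05) from a mean of 42.7 raw counts at D20 to 4.33 at D30; it is named after its value was seen.

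The 3 cytoplasmic beta subunits of Kv1 channels did not move together. Kcnab3 fell, with 13.6 ± 1.63 normalized CPM at D20 and 4.72 ± 2.12 at D30 (SD, n = 6; log2 -1.53, SE 0.22, adjusted p = 2.12e-06), without overlap, and from D25 to D30 it fell too (log2 -1.07, SE 0.22, adjusted p = 0.00209). Kcnab1 rose by 2.79 (SE 0.34, adjusted p = 1.08e-07) and Kcnab2 by 1.14 (SE 0.17, adjusted p = 2.16e-06), both named after their values were seen. Kcnab3 also shares exon bases with the opposite-strand transcript Kcnab3os.

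Organoids of one age differed in Kcn genes that were high where the cortex type neuron markers were high, a pattern found after the values were seen. D25 replicate 1, with the highest marker sum of its age (347.2), was the highest of 6 in 29 of the 65 tested Kcn genes (44.6%), beside 23.0% of annotated genes. D30 replicate 6, with the lowest sum (6.04), was the lowest of 6 in 40 Kcn genes (61.5%), beside 37.4% of annotated genes. It was also the lowest of D30 in the marker sums of Müller glia (1152), ganglion cells (53.8), oligodendrocytes (18.1) and astrocytes (114.7). It was not the lowest in the rod, cone, bipolar, amacrine, horizontal, progenitor, pigment epithelium or pericyte and endothelium sums. The part of any of these in the Kcn values was not tested. In that organoid Kcnq3 was at 4.77 normalized CPM against 20.0 to 42.8 in the other 5, and Kcnq5 at 1.22 against 10.8 to 36.2. Kcnj3, for the G protein-gated Kir3.1 and named after its values were seen, was there at 7.21 against 32.4 to 49.4. Kcnv2 (257.2) and Kcng4 (21.8) were each the second highest of D30 there. Kcnj14 (49.3) was second highest as well. D30 replicate 3, with a marker sum of 30.4, was the second lowest in Kcnq3 (20.0) and the highest in Kcnv2 (264.2), Kcnj14 (68.2) and Kcng4 (22.9).

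**Figure D4:**
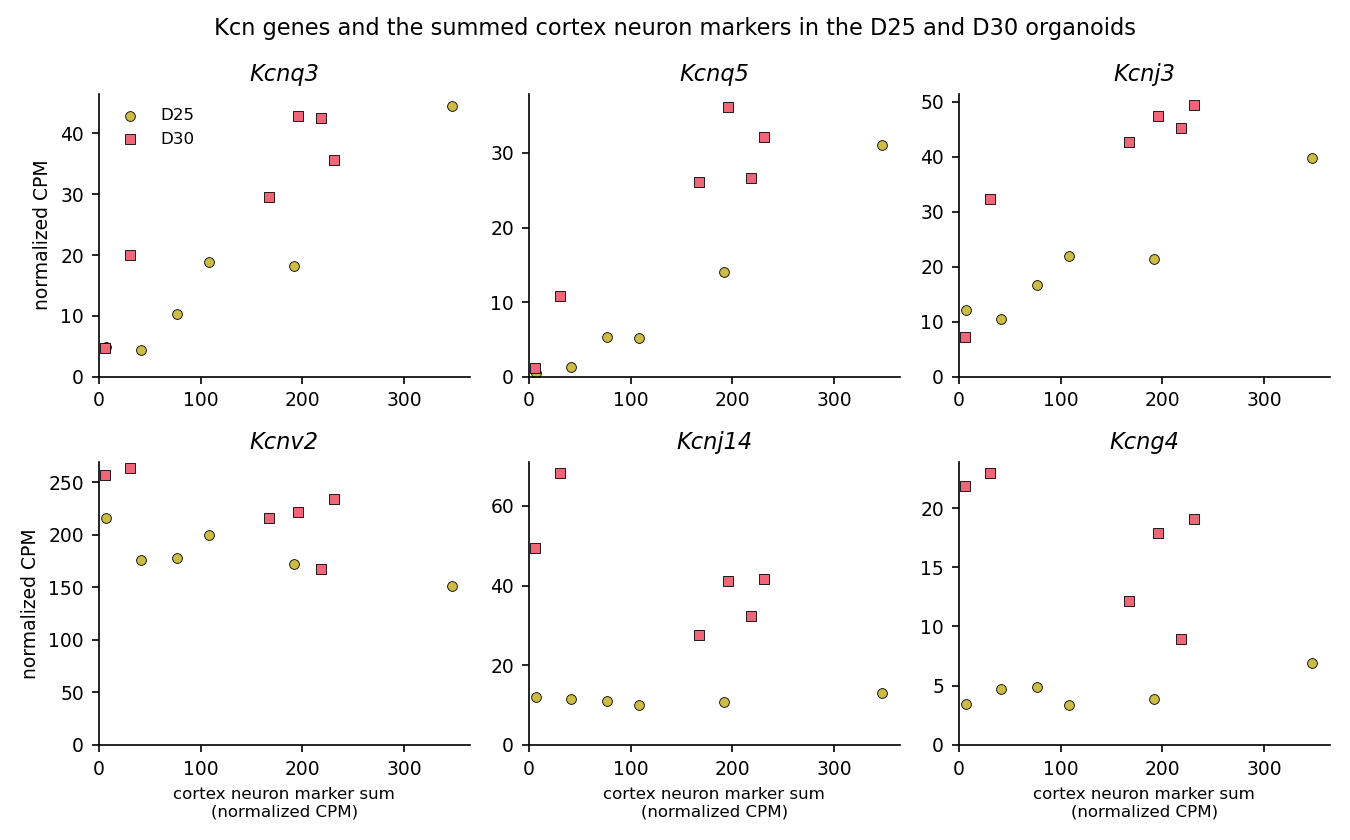
Normalized CPM of 6 Kcn genes (y axes, from 0) against the summed level of the 6 cortex type neuron markers in normalized CPM (x axis, from 0) in the 6 organoids of D25 (circles) and the 6 of D30 (squares). In the upper row (Kcnq3, Kcnq5, Kcnj3) the lowest D30 point is the organoid with the marker sum of 6.04, and in the lower row (Kcnv2, Kcnj14, Kcng4) that organoid is second highest at D30.

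Counts of calls were repeated with the log2 of the marker sum plus 1 as a covariate. Separately, they were repeated without the organoids whose sum exceeded 100 normalized CPM, and both alternatives were chosen after seeing the data. The median sum was 13.8 at D22, 92.7 at D25 and 181.5 at D30, so the covariate can take up part of an age difference. With the covariate, 5 rather than 11 Kcn genes were called higher from D22 to D25, and Kcnq3 (log2 1.29, adjusted p = 0.0912), Kcnq5 (log2 0.01, adjusted p = 0.994), Kcnj10 (log2 0.50, adjusted p = 0.271) and Kcnj2 (log2 1.28, adjusted p = 0.119) were no longer among them. Without the organoids above 100, which left 5, 6, 3 and 2 organoids from D20 to D30, 13 genes were called higher and 4 lower from D20 to D30, and the log2 fold change was 1.93 for Kcnq3 (adjusted p = 0.0406) and 1.46 for Kcnq5 (adjusted p = 0.177). From D25 to D30 it was 0.81 for Kcnj10 (adjusted p = 0.305) and 1.14 for Kcnk3 (adjusted p = 0.361), and the calls of Kcng4 (log2 2.36, adjusted p = 0.0438) and Kcnma1 (log2 1.07, adjusted p = 0.0237) were lost too. In both, Kcnv2 and Kcnj14 stayed past the threshold from D20 to D30, with log2 fold changes of 2.19 and 2.50 for Kcnv2 and 6.81 and 7.25 for Kcnj14.

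Genes that bind, anchor or modify potassium channels were followed as a further list of 21, of which 17 were tested. From D20 to D30, 12 rose and 1 fell, beside 13.9% and 13.0% of all features and 25.1% and 16.7% of annotated genes. Their median log2 fold change was 0.96, beside -0.04 for all features and 0.10 for the annotated genes. The largest rise was that of Aqp4, the glial water channel found beside Kir4.1 at end feet, from 16.1 to 266.8 normalized CPM (log2 4.05, SE 0.46, adjusted p = 2.26e-08). Dmd, the dystrophin gene, rose by 1.11 (SE 0.17, adjusted p = 3.19e-06). The scaffold genes Dlg4 (log2 1.73, adjusted p = 2.83e-11) and Dlg1 (log2 0.96, adjusted p = 1.2e-11) rose without overlap of the groups. Dpp10, an auxiliary subunit of Kv4 channels, rose by 3.50 (SE 0.54, adjusted p = 4.48e-06), while its relative Dpp6 did not pass the threshold (log2 -0.30, SE 0.19, adjusted p = 0.229). Ank3, the ankyrin of axon initial segments, was the gene that fell, from 380.7 to 201.7 (log2 -0.92, SE 0.12, adjusted p = 6.26e-07). At D30 Aqp4 was highest in replicate 1 (700.9) and, like Kcnj10, lowest in replicate 6 (49.9).

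Short motifs were looked up on both strands in the 250 bases before annotated starts (RefSeq, GRCm38.p6), where 45 of the 65 tested genes had 65 windows. The core that CRX and OTX2 bind, TAATCC, was found for 1 of the 45 genes (2.22%) and for 7.21% of all 27025 genes with a window. The E-box CAGCTG was found for 12 of the 45 genes (26.7%) and for 14.7% of all. Genes and not windows were counted, since windows of 1 gene can overlap and hold the same site. The window of Kcnj9 (chr1:172329323-172329572, minus strand) is shown for the single TAATCC, read here as GGATTA in capitals from 97 to 92 bases before the start, and that of Kcng4 (chr8:119635681-119635930, minus strand) for an E-box in a gene that rose, in capitals from 130 to 125 bases before the start. Both are matches of letters only, and binding was not measured.
Kcnj9: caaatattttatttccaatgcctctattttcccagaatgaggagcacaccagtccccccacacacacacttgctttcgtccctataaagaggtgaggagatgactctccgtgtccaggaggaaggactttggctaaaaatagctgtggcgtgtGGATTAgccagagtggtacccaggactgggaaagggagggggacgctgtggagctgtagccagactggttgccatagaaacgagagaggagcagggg
Kcng4: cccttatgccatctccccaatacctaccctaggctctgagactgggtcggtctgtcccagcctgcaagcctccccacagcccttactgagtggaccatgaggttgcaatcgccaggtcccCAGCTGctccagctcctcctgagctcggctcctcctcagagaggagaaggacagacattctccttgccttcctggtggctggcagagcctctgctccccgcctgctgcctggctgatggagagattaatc

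Of the 29 Kcn genes below the limit, 3 had no count in any file (Kcna10, Kcnk16 and Kcnk18) and 11 had a mean under 1 count. They comprised 5 conducting, 4 modifier, 5 inward rectifier, 8 two-pore, 2 calcium- or sodium-activated and 4 auxiliary genes, and Kcnrg, which fits none of these groups. None of these genes was tested for change.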

How the data were processed

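Total RNA of 24 single organoids was depleted of ribosomal RNA and sequenced from strand-specific libraries. The authors trimmed adapters with cutadapt 1.5, aligned the reads to GRCm38/mm10 with HISAT2, assembled further transcripts with StringTie 1.3.3 and counted reads per gene or assembled locus with HTSeq 0.6.1; the values deposited by the authors are raw counts, as whole numbers, for 126602 features. Reads on no feature, 35.0% to 45.6% of each library's reads without its multiply aligned ones, and the other summary lines were left out. Symbols, coordinates and exon lengths came from a GENCODE annotation of the same build, and role groups were set by symbol.

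From these counts, TMM normalization and edgeR 4.0.16 quasi-likelihood tests (R 4.3.3) were run in 1 fit of the 24 libraries on 46949 features with a mean of at least 10 counts after scaling, with Benjamini-Hochberg adjustment over all of them and a threshold of 0.01. SEs and 95% intervals were derived from the F statistic. Counting limits (3 counts) cover counting error only. The fit was tested on simulated data. Alternatives were DESeq2 1.42.0, its size factors, other filters, annotated genes alone, a replicate block, the compared timepoints alone, a 2-fold minimum, a threshold of 0.05, and each organoid left out. No pair of libraries was a repeat (lowest chi-square over its degrees of freedom within a timepoint 6.09).

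Named genes were, per role group, the one with the highest level per kb, and from D20 to D30 up to 8 with the largest rise and up to 8 with the largest fall among those called with a mean of at least 100 raw counts. In each step up to 3 with the smallest adjusted p per direction were added, and 12 genes were named outright, among them Kcnv2, Kcnj10 and Kcnj13. Others described by their level or change are marked as named after their values were seen, and further genes appear only in lists or as limits. Some genes of the lists are not reported by name here and are left out of the plots of single genes. The members and gene lists were chosen with earlier results of these data known.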

Additional observations from a re-analysis of the deposited data

Results flagged for a closer look

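Among 76 groups of 6 organoids examined for 19 tested named genes, 3 held an organoid far from the other 5 by Dixon's test, and chance gives about 1 in 20. At D25, Kcnq3 was at 44.5 normalized CPM in replicate 1 and at 4.34 to 18.9 in the others. That organoid had the highest sum of cortex type neuron markers at D25 (347.2 normalized CPM), and the part of this in this value was not tested. At D30, Kcnc2 was at 8.74 in replicate 1 and at 2.77 to 3.82 in the others. At D22, Kcnab3 was at 9.002 in replicate 2 and at 13.4 or more in the others.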

How the results depend on the processing

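Of 1435 repeats of the 41 named-gene changes under an alternative, 1300 kept their direction and side of the threshold, 123 lost the call, 11 gained it and 1 reversed. The reversal was Kcnj2 from D20 to D30, at log2 -0.16 without the organoids whose cortex type marker sum exceeded 100 (adjusted p = 0.909). Counts of Kcn genes called higher and lower moved by over 1.5 times as follows. From D20 to D22, 0 rose by at least 2-fold, 2 rose in a fit of the compared timepoints alone, and 1 fell by DESeq2 or with no filter and 2 at a threshold of 0.05. From D22 to D25 the counts were 1 and 0 for at least 2-fold, 23 and 2 at 0.05, 5 and 0 with the log2 marker sum as covariate, and 4 and 0 without the organoids above 100. From D25 to D30 they were 0 and 0 for at least 2-fold, 11 and 5 at 0.05, and 1 and 1 without those organoids, and the lower count alone was 1 with DESeq2 or its size factors, 4 with annotated genes only and 0 in the compared timepoints alone. From D20 to D30 they were 17 and 2 for at least 2-fold and 13 and 4 without those organoids, and 5 were lower with no filter or in the compared timepoints alone. The joint count was 17 without those organoids. Channel partner genes higher and lower were 4 and 0 for at least 2-fold, and 7 were higher without those organoids. With each organoid left out in turn, higher counts were 3 to 5, 6 to 13, 4 to 11 and 32 to 38 in the order of the comparisons, lower counts 0 to 1, 0 to 1, 1 to 3 and 6 to 9, the joint count 42 to 46, and partner counts 9 to 12 and 1. From D25 to D30 the lower count was 1 without D25 replicate 2, 4 or 5 and without D30 replicate 1, 3 or 5. From D20 to D22 it was 1 without D20 replicate 4 or 5, D22 replicate 6, or D30 replicate 3, 5 or 6. The cause of these shifts was not tested, other than for the stricter or looser thresholds, and without the organoids above 100 fewer samples were fitted, with 2 left at D30.

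Same-numbered organoids deviated together by correlations from -0.09 to 0.26, with a mean of 0.01, and 7 of 24 libraries correlated best with their own number, so that the replicate numbers were not taken as pairs. With the replicate block, 1 Kcn gene was called lower from D25 to D30 rather than 2, and no other count of Kcn genes moved by over 1.5 times. The calls that changed were Kcnj10, Kcnj2 and Kcnq5 (not called) and Kcnj9 (called) from D22 to D25, Kcne2 (not called) from D25 to D30, and Kcnd3 and Kcnh6 (not called) from D20 to D30.

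Depth limits the D20 levels of Kcnj13, Kcnj14 and Kcnv1, which lie near 3 counts.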
